A study of Mus musculus with 48 samples.

Results

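Binding of a FLAG-tagged wild-type (WT) CTCF transgene was set against all CTCF seen by an antibody to the protein, in mouse embryonic stem cells given the same treatment. The comparison took the WT FLAG peak list and the CTCF antibody peak list of treated WT cells, and a peak counted as shared where it overlapped a peak of the other list by at least 1 bp. The lists held 15392 FLAG peaks and 116973 CTCF antibody peaks, together 132365 of the 553465 peaks in the 13 lists used here. The other 11 lists, read only as further readouts at these peaks, were SMC3 in treated WT cells, the CTCF antibody in WT cells left untreated, and FLAG in cells treated alike whose transgene carried the change R377C, R377H, S354F, K365T, Q418R, R339Q, R342C, H455R or R448Q. The FLAG and CTCF antibody lists compared stand for 4 of the 48 samples of the series, 2 replicates in each group. The cells were E14Tg2a, a 129/Ola line, with an auxin degron on endogenous CTCF and a doxycycline-inducible WT Ctcf transgene. Both groups received 500 µM indole-3-acetic acid (IAA), the auxin that triggers the degron, and 1 µg/ml doxycycline for 2 days. The labels do not say which promoter drives the transgene beyond its induction by doxycycline, or whether the WT cells are 1 clone.

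Chromatin was taken from cells fixed with 25 mM EGS and 1% formaldehyde and profiled by ChIPmentation, in which a transposase adds sequencing adapters to chromatin held on the beads. FLAG M2 magnetic beads captured the transgene protein, and the CTCF antibody sat on protein A beads. The CTCF antibody sees the transgene protein and any endogenous CTCF left after IAA, and that residue was not measured, so a peak of its list cannot be assigned to either protein. Each deposited list pools both replicates of its group. There is thus 1 list per group, no spread between replicates and no test between groups, and intervals in parentheses are 95% Wilson intervals, computed over peaks and so covering counting error alone. Depth per library is unknown, the labels state only how many 150-bp paired-end reads were aimed for, and the identity of the cells cannot be checked against marker genes in peak lists. The IgG control and FLAG in cells left untreated were not used here.

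CTCF is a zinc-finger protein that binds a long DNA motif at insulators, promoters and the borders of chromatin loops. Cohesin, the ring complex that holds SMC3, extrudes chromatin loops and halts where CTCF is bound in the right orientation. In embryonic stem cells such sites border many domains of chromosome folding, and an epitope tag allows an added CTCF to be followed apart from the endogenous protein.

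To show what lay under peaks of both kinds, promoter windows from 250 bases before to 50 bases after a gene's start (RefSeq, GRCm38.p6) were searched on both strands for the letters at the core of the CTCF motif, CC, any 3 bases, AG, any 2 bases and GGC. Printed first are the windows under the strongest FLAG peaks that overlap a promoter window, 5′ to 3′ on the gene's strand, with matches in capitals. Ephb1, an ephrin receptor, lies at chr9:102354644-102354943 on the minus strand. Gm41414, a predicted gene, lies at chr16:5306588-5306887 on the plus strand. Trappc5, part of a vesicle-tethering complex, lies at chr8:3676227-3676526 on the plus strand.
Ephb1: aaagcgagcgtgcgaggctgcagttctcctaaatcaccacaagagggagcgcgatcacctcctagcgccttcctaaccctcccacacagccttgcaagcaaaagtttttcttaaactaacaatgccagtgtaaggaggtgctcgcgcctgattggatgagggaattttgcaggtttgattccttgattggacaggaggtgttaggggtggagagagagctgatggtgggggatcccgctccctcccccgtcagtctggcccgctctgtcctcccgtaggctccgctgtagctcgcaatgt
Gm41414: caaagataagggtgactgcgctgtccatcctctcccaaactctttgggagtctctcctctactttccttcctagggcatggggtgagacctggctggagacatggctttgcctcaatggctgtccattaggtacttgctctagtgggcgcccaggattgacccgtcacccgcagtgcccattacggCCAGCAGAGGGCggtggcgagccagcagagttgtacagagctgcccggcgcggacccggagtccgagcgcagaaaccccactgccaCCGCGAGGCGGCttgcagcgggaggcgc
Trappc5: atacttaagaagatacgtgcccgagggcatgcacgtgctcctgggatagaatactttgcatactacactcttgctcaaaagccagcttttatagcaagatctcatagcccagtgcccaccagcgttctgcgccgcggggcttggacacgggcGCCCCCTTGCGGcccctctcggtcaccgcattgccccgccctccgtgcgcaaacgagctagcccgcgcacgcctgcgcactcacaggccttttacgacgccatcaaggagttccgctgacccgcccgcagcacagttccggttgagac

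The FLAG peak at Ephb1 had a value of 16.9 and ranked 8 in its list, that at Gm41414 had 15.6 (rank 18) and that at Trappc5 had 14.9 (rank 26). All 3 windows lay wholly under their FLAG peak, under a CTCF antibody peak and at a WT SMC3 peak. The Gm41414 window held 2 matches, the Trappc5 window 1, and the Ephb1 window none.

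The strongest CTCF antibody peaks without a FLAG peak that overlap a promoter window gave the contrasting set. Gm34880, a predicted gene within the Asic1 site described below, lies at chr15:99669807-99670106 on the minus strand. E2f2, a transcription factor of the cell cycle, lies at chr4:136180532-136180831 on the plus strand. Pop7, an RNase P and MRP subunit, lies at chr5:137502380-137502679 on the minus strand.
Gm34880: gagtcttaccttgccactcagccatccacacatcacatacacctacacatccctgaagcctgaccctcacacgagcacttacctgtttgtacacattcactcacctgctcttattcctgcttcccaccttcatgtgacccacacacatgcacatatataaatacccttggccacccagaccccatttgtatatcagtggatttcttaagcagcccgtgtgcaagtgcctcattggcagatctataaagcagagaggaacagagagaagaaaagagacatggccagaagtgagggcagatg
E2f2: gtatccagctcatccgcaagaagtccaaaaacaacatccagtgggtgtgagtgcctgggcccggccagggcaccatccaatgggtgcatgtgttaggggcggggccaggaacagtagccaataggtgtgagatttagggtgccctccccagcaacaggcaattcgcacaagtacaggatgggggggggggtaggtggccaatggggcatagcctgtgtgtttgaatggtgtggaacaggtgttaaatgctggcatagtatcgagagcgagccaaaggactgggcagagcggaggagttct
Pop7: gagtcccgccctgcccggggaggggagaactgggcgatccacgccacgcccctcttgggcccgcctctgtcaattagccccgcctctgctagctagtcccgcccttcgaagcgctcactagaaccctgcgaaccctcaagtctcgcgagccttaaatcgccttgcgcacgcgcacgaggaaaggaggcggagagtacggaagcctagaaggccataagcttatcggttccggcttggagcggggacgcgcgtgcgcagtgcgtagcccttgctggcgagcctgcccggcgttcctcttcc

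The CTCF antibody values at these windows were 204 at Gm34880, 143 at E2f2 and 140 at Pop7. None of the 3 windows held a match, which says only that these letters are not in these 300 bases, since the peaks reach beyond them. Across all 32851 windows, of 27025 genes, 2828 (8.61%; 8.31 to 8.92) held a match. Among the 731 windows that overlapped a FLAG peak the share was 46.8% (43.2 to 50.4). Windows that lay under a CTCF antibody peak with FLAG, but outside its FLAG peak, held a match in 9.05% (7.19 to 11.3) of 740 cases. The share was 16.2% (14.6 to 17.8) under antibody peaks of the lowest 7 deciles without FLAG, and 6.31% (6.03 to 6.60) in windows under no peak of either list. Windows on the FLAG interval itself thus held the letters most often of these sets. Over whole CTCF antibody peaks of the strongest decile the gap was small: 28.7% (26.3 to 31.2) of windows with FLAG and 24.2% (18.8 to 30.7) of windows without FLAG held a match, and the intervals overlap.

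Which CTCF antibody peaks carried a FLAG peak followed their rank closely. The value deposited with a peak, a score from the authors' caller, ranks peaks within 1 list only. In all, 12921 of 116973 CTCF antibody peaks (11.0%; 10.9 to 11.2) had a FLAG peak, and 104052 had none. Every one of the strongest 100 had one (100%; 96.3 to 100), as did 998 of the strongest 1000 and 98.1% of the strongest 5000. The share was 88.6% (87.3 to 89.8) at ranks 5001 to 7500, 76.2% at 7501 to 10000, 61.6% at 10001 to 12500 and 41.7% (39.8 to 43.6) at 12501 to 15000. It was 1002 of 5000 peaks at ranks 15001 to 20000, 4.62% at 20001 to 25000 and 1.00% at 25001 to 30000. Below rank 40000 only 13 of 76973 peaks had a FLAG peak. The decline was thus smooth, with no step: in a running window of 1000 peaks the share passed below 95% at middle rank 4652, below 50% at 12738 and below 10% at 19100.

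**Figure D1:**
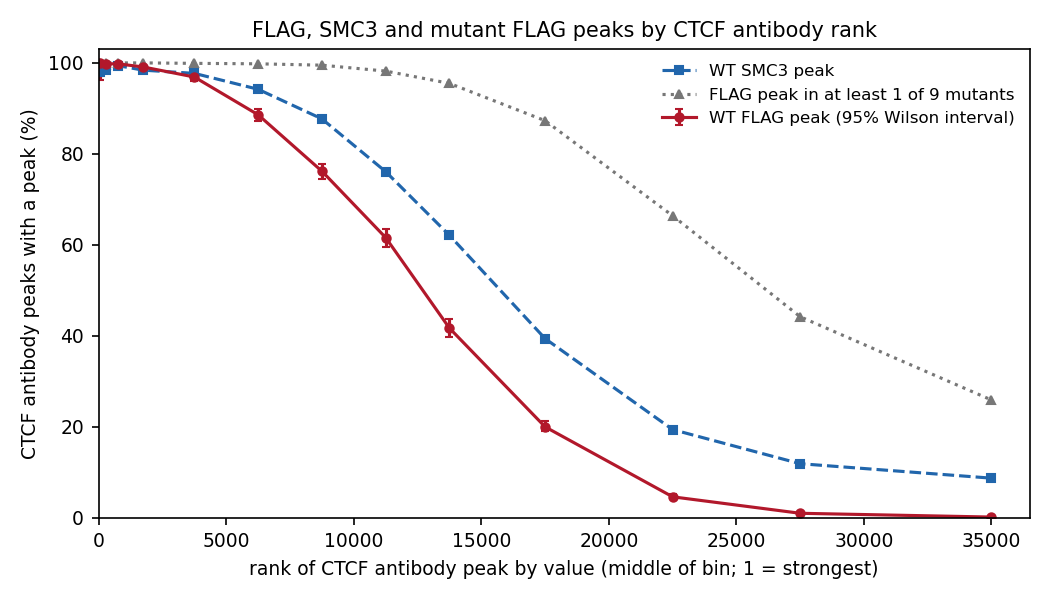
Share of treated CTCF antibody peaks (y axis, percent) with a WT FLAG peak (red, 95% Wilson intervals), a WT SMC3 peak (blue) or a FLAG peak in at least 1 of 9 mutants (grey), against the middle of each bin of CTCF antibody rank (x axis), down to rank 40000. The FLAG share falls from 100% in the strongest 100 peaks to 0.170% at ranks 30001 to 40000, while the mutant share is still 25.9% there.

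In deciles of CTCF antibody strength, 86.5% (85.8 to 87.1) of the strongest decile had a FLAG peak, 23.0% of decile 9 and 0.889% of decile 8. The lowest 7 deciles together held 15 such peaks among 81881. Thus 99.1% of the CTCF antibody peaks with FLAG lay in the upper 2 deciles. The length of the lists enters this share: when the CTCF antibody list was cut to its strongest 15392 peaks, as many as FLAG has, 76.3% had a FLAG peak, against 11.0% over the full list. Cohesin had the same order, with a WT SMC3 peak at 18.9% of all CTCF antibody peaks, 92.2% of the strongest decile, 41.2% of decile 9 and 11.0% of decile 8.

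The strongest CTCF antibody site of all lay at Vps18, a core subunit of endosomal and lysosomal tethering complexes (mm10, chromosome 2, 119287377 to 119289060, over a promoter window). Its antibody value was 289, and its FLAG value was 8.42, rank 623 of the FLAG list. The site nearest Caln1, a calcium-binding protein (chromosome 5, 130852242 to 130862256), had an antibody value of 287 and 2 FLAG peaks, the stronger at 15.8 (rank 14). Arid3a, a DNA-binding protein (286), Dpp8, a dipeptidyl peptidase (285), and Cep120, a centriole protein (276), followed in antibody value. Their FLAG values were 10.2, 9.44 and 15.9. The next 5, nearest Th, Atp23, Gm14444, Pnpla1 and Enah, had antibody values of 268 to 275 and FLAG values of 7.04 to 10.2. All 10 sites held a WT SMC3 peak, an untreated CTCF antibody peak and FLAG peaks in 7 to 9 of the 9 mutants, so they were found in every kind of list, although their FLAG ranks ran from 13 to 1300.

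What the FLAG list missed at the top of the antibody ranking was few in number. The strongest CTCF antibody peak without FLAG lay at Asic1, an acid-sensing ion channel (chromosome 15, 99668446 to 99670732), with a value of 204 and rank 213. The second lay at Myh14, a non-muscle myosin heavy chain (chromosome 7, 44647238 to 44649555), with 173 and rank 800, and a FLAG peak lay 0.558 kb from it. These were the only misses in the strongest 1000. The third lay at Dlgap3, a postsynaptic scaffold protein (chromosome 4, 127198971 to 127200730), with 159 and rank 1287. The fourth lay at Srrm4, a splicing regulator of neurons (chromosome 5, 116443668 to 116445605), with 156 and rank 1441, and it was the only 1 of the 10 strongest misses without a WT SMC3 peak. The other 6, nearest Alkbh1, Pef1, Cdk1, Flot1, Rps6ka1 and E2f2, had values of 143 to 152. Of the 10, those at Dlgap3, Pef1, Rps6ka1 and E2f2 lay on chromosome 4, between 127198971 and 136180878. Chromosome 4 as a whole had FLAG at 85.1% of its 890 antibody peaks of the strongest decile, near the 86.5% over all chromosomes.

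All 10 missed sites had an untreated CTCF antibody peak, and each had a FLAG peak in 2 to 6 of the 9 mutants, so tagged CTCF of a mutant form was listed where tagged WT was not. The same held for most of the 1582 peaks of the strongest decile without FLAG. A FLAG peak of at least 1 mutant lay on 1535 of them (97.0%), against 99.6% of the whole decile. One of R377C or S354F lay on 1512 (95.6%). R377C alone had a peak at 86.7% of them and S354F at 80.9%, whereas R339Q had 40.0%, R342C 38.6%, R448Q 38.4%, Q418R 37.2%, R377H 35.2%, K365T 14.0% and H455R 2.59%. At the 10116 peaks of that decile with WT FLAG the shares were higher for every mutant, from 11.7% in H455R to 97.0% in S354F and 99.1% in R377C. The mutant lists differ in length, from 3855 peaks in H455R to 30462 in R377C, against 15392 in WT, and the part of list length in these shares was not tested. Only 47 of the 1582 were in no mutant list, and 34 of those had a WT SMC3 peak.

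Missed peaks of the strongest decile were weaker and narrower than those with FLAG. Their median antibody value was 79.3 against 109, and their median width 1796 bp against 2627 bp. Almost none was a near miss: 8 of 1582 lay within 500 bp of a FLAG peak, 419 (26.5%) within 10 kb, and the median distance was 23.6 kb. Peaks may also have been taken out of a list before deposit, since the FLAG peak names run to 15821 and 429 of those numbers (2.71%) do not appear. A missing FLAG number lay at 48 of the 1582 missed peaks (3.03%), the same share as at all CTCF antibody peaks without FLAG.

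Cohesin differed between the classes. Of CTCF antibody peaks with FLAG, 89.2% (88.7 to 89.7) had a WT SMC3 peak, and of those without, 10.2% (9.97 to 10.3), a difference of 79.1 points (Newcombe interval 78.5 to 79.6). Since strength differed between the classes, peaks of like rank were compared. In the strongest decile SMC3 was present at 9607 of 10116 peaks with FLAG (94.5 to 95.4%) and at 1180 of 1582 (74.6%; 72.4 to 76.7) without, in decile 9 at 70.1% and 32.6%, and in decile 8 at 32.7% and 10.8%. The class with FLAG was higher in each bin of 2500 ranks down to rank 30000, with overlapping intervals in the first bin alone, where 15 peaks lacked FLAG. Standardised over deciles of antibody strength the difference was 30.4 points, and over 100 bins 21.0, so it was smaller but of the same direction. Weighting each bin by its peaks with FLAG, as was first done, gave 23.9 and 12.3 points. Width was not matched in any of these comparisons. Peaks with FLAG were wider at like rank, with medians of 2037 bp against 1612 bp at ranks 10001 to 12500. The part of width in the SMC3 difference was not tested.

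**Figure D2:**
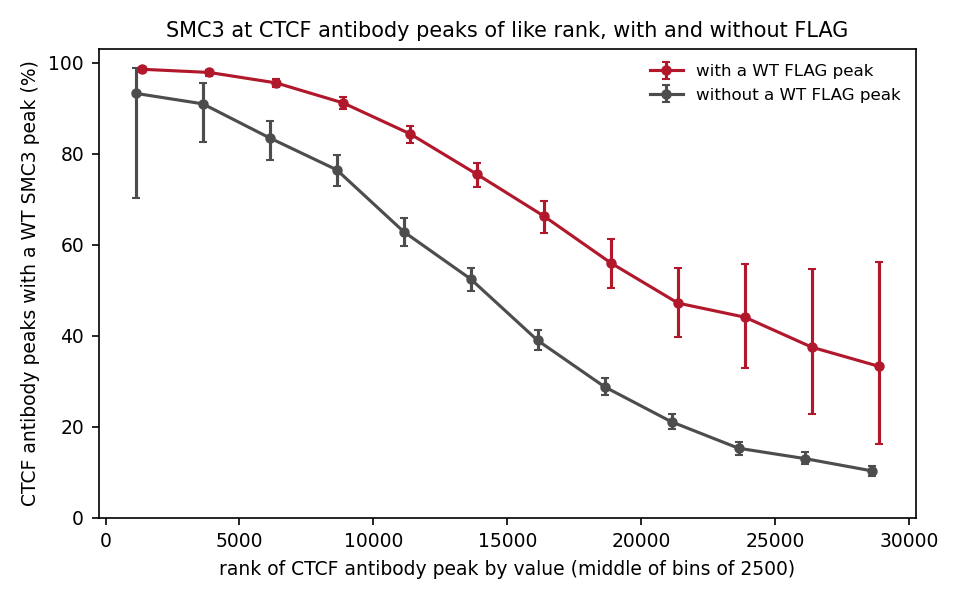
Share of treated CTCF antibody peaks with a WT SMC3 peak (y axis, percent, 95% Wilson intervals) in bins of 2500 ranks (x axis), for peaks with (red) and without (grey) a WT FLAG peak. At ranks 10001 to 12500 the shares are 84.4% and 62.9%, and at 17501 to 20000 they are 56.0% and 28.8%.

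Gene ends behaved otherwise. A gene end, taken as 1 kb around either end of a RefSeq gene span, was at 24.7% of CTCF antibody peaks with FLAG and 13.3% of those without, a difference of 11.4 points (10.6 to 12.1). Within the strongest decile the shares were 27.5% and 27.1%, with overlapping intervals. Standardised over deciles the difference was -1.42 points and over 100 bins -5.57, so the direction turned once strength was matched. At ranks 5001 to 7500, for example, 25.0% of peaks with FLAG and 34.5% of peaks without lay at a gene end, and a promoter window lay under 8.21% and 14.4%. Untreated cells had a CTCF antibody peak at 12920 of the 12921 peaks with FLAG and at 90.7% of those without, and in the strongest decile without FLAG at 1581 of 1582.

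Read from the FLAG side, the lists matched far more often. A CTCF antibody peak lay under 14023 of the 15392 FLAG peaks (91.1%; 90.6 to 91.5). The share was 65.3% (62.9 to 67.7) in the weakest decile of FLAG peaks, 80.3% in decile 2, 84.0% in decile 3 and 95.1% in decile 5. From decile 7 up it was at least 99.2%. Weak FLAG peaks were thus those most often outside the antibody list, and SMC3, present at 81.2% of all FLAG peaks, ran from 63.7% in the weakest decile to 99.4% in the strongest.

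**Figure D3:**
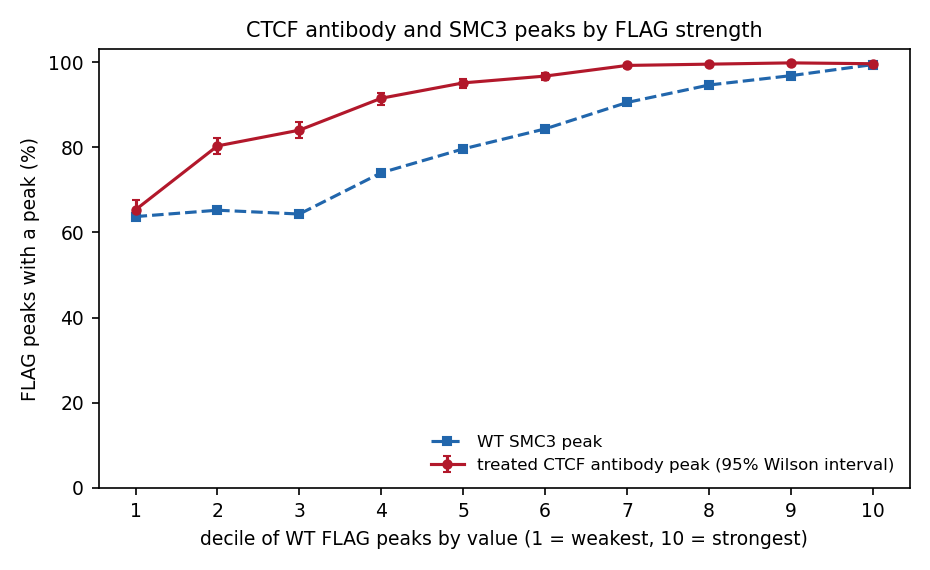
Share of WT FLAG peaks (y axis, percent) with a treated CTCF antibody peak (red, 95% Wilson intervals) or a WT SMC3 peak (blue), by decile of FLAG value (x axis, 1 the weakest). The antibody share rises from 65.3% in the weakest decile to 99.6% in the strongest.

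The 1369 FLAG peaks without a CTCF antibody peak were weak and narrow, with a median value of 2.55 and a median width of 130 bp, against 3.82 and 264 bp for shared ones. SMC3 was at 14.2% (12.4 to 16.1) of them and at 87.8% of shared FLAG peaks. A promoter window lay under 5 of them, an untreated CTCF antibody peak under 21, and 695 (50.8%) had no FLAG peak in any mutant. SMC3 went with recurrence: it was at 2.88% of those in no mutant list, 13.4% of those in 1 to 2, 49.5% of those in 3 to 6 and 58.1% of the 31 in 7 to 9. Median FLAG width rose in the same order, at 121, 135, 166 and 199 bp, and the part of width in these shares was not tested.

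The strongest of them stood apart from the rest. Hnf4a, a hepatocyte and endoderm transcription factor, held the first (chromosome 2, 163534844 to 163535441), with a FLAG value of 9.32, rank 391. The second lay nearest Wwox, an oxidoreductase (chromosome 8, 114438081 to 114438610), with 9.09, and the third nearest Apba2, a neuronal adaptor (chromosome 7, 64497308 to 64497864), with 8.76. Ctcfl, the germline paralogue of Ctcf, held the sixth (chromosome 2, 173097252 to 173097908), with 6.80, and it had FLAG peaks in all 9 mutants. Pfdn4, Tns1, Ndufa8, Rims2, Etnk1 and Ccdc192 were nearest to the others, with values of 5.22 to 7.91. Of the 10, 8 had a WT SMC3 peak, none had an untreated CTCF antibody peak, and 7 were in at least 7 mutant lists.

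At all 10 of these sites a number is missing from the running count of the treated CTCF antibody list, between the peaks on either side, and the same held in the untreated list. A peak may therefore have been called there and taken out before deposit, and no source used here says how. Among the next 40 FLAG peaks without a CTCF antibody peak a treated number was missing at 7, among the following 150 at 3, and among the remaining 1169 at 33. In all, 53 of 1369 (3.87%) lay where a number is missing, and of the 6 in the strongest decile of FLAG peaks, all 6 did. The absence of a CTCF antibody peak at these strongest sites cannot be read as an absence of antibody signal.

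Strength ranks in the lists were related loosely. Over the 14023 shared FLAG peaks, each set against the strongest CTCF antibody peak it overlaps, Spearman's rho was 0.36, and over 11956 pairs that overlap no other peak it was 0.40. These are descriptions across peaks, which share libraries and a peak caller, and carry no p-value. Where a FLAG interval is listed for several summits, taking the lowest value in place of the highest gave 0.26. The 12308 FLAG peaks present in all 4 WT lists allowed the same peaks to be compared: rho was 0.33 between FLAG and treated CTCF antibody, 0.42 between FLAG and SMC3, 0.56 between treated CTCF antibody and SMC3, 0.73 between treated and untreated CTCF antibody, and 0.08 between FLAG and untreated CTCF antibody. The FLAG ranking was thus nearer to those of treated cells than to that of untreated cells, and the antibody lists were nearer to each other than either was to FLAG.

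**Figure D4:**
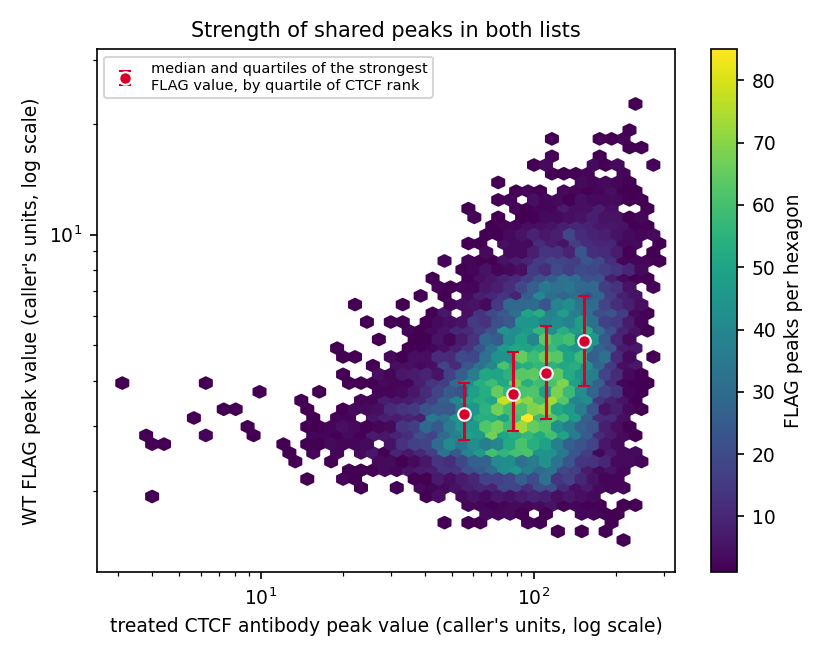
WT FLAG peak value (y axis) against the value of the strongest treated CTCF antibody peak it overlaps (x axis), both on log scales in the caller's own units, as FLAG peaks per hexagon over 14023 shared peaks. Red points take the strongest FLAG value in each of the 12921 CTCF antibody peaks with FLAG, not all plotted FLAG peaks. They are medians with quartiles by quartile of CTCF antibody rank, and rise from 3.24 in the weakest quartile to 5.14 in the strongest.

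When the CTCF antibody peaks with FLAG were cut into quartiles by rank, the median of the strongest FLAG value was 5.14, 4.19, 3.67 and 3.24 from the strongest quartile to the weakest. Within the quartiles Spearman's rank correlation was 0.26, 0.06, 0.06 and 0.16; each covers a narrower range of antibody values than the whole, which by itself lowers it. The tops of the lists overlapped in part. Of the whole FLAG list, 0.819% lay on the strongest 100 CTCF antibody peaks, 7.76% on the strongest 1000 and 36.4% on the strongest 5000. The strongest FLAG peaks lay there more often than that. Of the strongest 100 FLAG peaks, 10 lay on 1 of the strongest 100 CTCF antibody peaks, and their median antibody rank was 1134. Of the strongest 1000, 282 (28.2%) lay on the strongest 1000 antibody peaks, which is 276 of those (27.6%). Of the strongest 5000, 57.4% did, or 55.0% of the antibody peaks.

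The most discordant pairs show how far the ranks could part. Near Mex3c, an RNA-binding ubiquitin ligase 450 kb away (chromosome 18, 73122099 to 73122478), a FLAG peak of 7.62 (rank 938) lay on an antibody peak of 40.7 (rank 18169). Those nearest Tent5c, Gm11545, Tmc1 and Krt33a had FLAG values of 8.27 to 8.63 and antibody values of 49.4 to 55.5. The other way, the antibody peak nearest Tor1b, a torsin ATPase of the endoplasmic reticulum (chromosome 2, 30941725 to 30943836), had 205 (rank 195) and a FLAG value of 1.47, rank 15388 of 15392. Stk4, a kinase of the Hippo pathway (chromosome 2, 164073846 to 164074301), had 182 in the antibody list and 1.59 in the FLAG list. The sites nearest Gpr157, Exoc3l and Gja3 had antibody values of 170 to 197 and FLAG values of 1.61 to 1.74. All 10 sites had a WT SMC3 peak and FLAG peaks in at least 4 mutants, so both kinds of discordant site were found in other lists too.

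FLAG peaks were small intervals inside broad antibody peaks. Of the shared FLAG peaks, 14011 (99.9%) lay wholly inside their CTCF antibody peak. The median width was 250 bp over all FLAG peaks and 2395 bp over CTCF antibody peaks with FLAG, but 213 bp over those without. A match by 50% reciprocal overlap therefore left 0.247% of FLAG peaks shared and 38 pairs, with a rho of 0.60. Where an antibody peak held 1 FLAG peak, the median distance between their centres was 359 bp. Width and value moved together within the antibody list (rho 0.80 across peaks). At like strength, peaks with FLAG were still wider than those without, in each rank bin compared for SMC3. At ranks 5001 to 7500 their median widths were 2563 bp and 2014 bp, at median antibody values of 100 and 97.1. At ranks 17501 to 20000 the widths were 1358 bp and 991 bp, at values of 39.7 and 38.7. Why width differed at like strength was not tested.

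**Figure D5:**
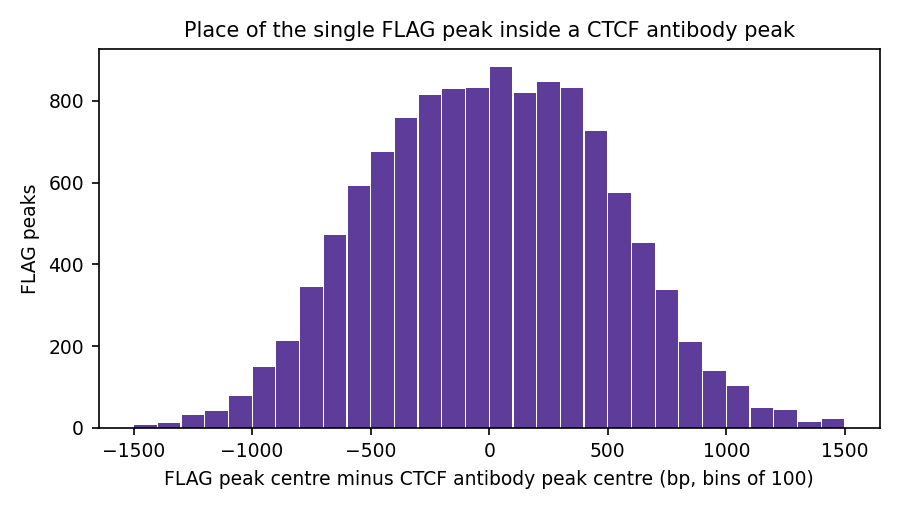
Distance from the centre of the CTCF antibody peak to the centre of its FLAG peak (x axis, bp, bins of 100) against the number of FLAG peaks (y axis), for antibody peaks holding 1 FLAG peak, within 1500 bp. The highest count is 882, from 0 to 100 bp, with 846 from 200 to 300 bp, and counts are far lower beyond 1000 bp on either side.

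An antibody peak held 2 or more FLAG peaks in 964 of 12921 cases (7.46%) and 3 or more in 119. Those with several were wider, with a median of 4375 bp against 2300 bp for those with 1, and had SMC3 in 98.5% against 88.5%. Antibody strength differed too: 901 of the 964 lay in the strongest decile, against 10116 of all 12921 with FLAG. SMC3 was at 9607 of those 10116, but at 70.1% of peaks with FLAG in decile 9. Neither strength nor width was matched here, and their part in the SMC3 gap was not tested. The 4 that held 5 FLAG peaks, named after their values were seen, overlapped the spans of Fxyd2, a regulator of the sodium pump, Tspan17, a tetraspanin, Clip2, a microtubule linker, and Ksr2, a scaffold of the MAP kinase pathway. The Fxyd2 peak was also the widest of the antibody list, at 15861 bp (chromosome 9, 45407632 to 45423492), with a value of 182.

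Gene groups were described through the strongest decile of antibody peaks within 10 kb of their members, with or without FLAG. Over the whole genome, 86.5% of the strongest decile had FLAG, and 35.8% of 21896 protein-coding genes lay within 10 kb of a FLAG peak. The groups are small and the counts carry no test. Of the genes of cohesin, its regulators and Ctcf, 12 of 12 such peaks had FLAG, and 9 of 19 genes lay within 10 kb of a FLAG peak: Ctcfl, Esco1, Hdac8, Nipbl, Pds5b, Pttg1, Smc3, Stag1 and Stag2. The strongest was near Ctcfl, with an antibody value of 184 and a FLAG value of 5.31. The strongest antibody peak of the group without FLAG was in Hdac8, the SMC3 deacetylase, with 53.3.

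Pluripotency genes had FLAG at 11 of 14 strong antibody peaks, and 7 of 24 genes lay within 10 kb of a FLAG peak: Esrrb, Nanog, Nr5a2, Pou5f1, Sall4, Sox2 and Tbx3. Tcf3 was matched by symbol to the gene on chromosome 10, not to the stem cell factor Tcf7l1, which formerly shared that name. Peaks near it are among the 14. The strongest peak with FLAG was 9.02 kb from this Tcf3, with 196 in the antibody list and 4.00 in the FLAG list. The strongest without lay 2.98 kb from Dppa3, a maternal-effect protein of germ and stem cells (chromosome 6, 122633256 to 122634954), with 84.5, an SMC3 peak and FLAG in S354F and R377C. The DNA methylation group had FLAG at 6 of 8 strong peaks. Its strongest was 5.01 kb from Dnmt1, the maintenance methyltransferase, with an antibody value of 230 and a FLAG value of 5.00, and its strongest without FLAG was near Mbd3, with 83.8.

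Hox genes, whose clusters are divided by CTCF sites, had FLAG at 12 of 13 strong peaks. The strongest lay over Hoxa5, inside the span of Hoxa3 (chromosome 6, 52204089 to 52206680), with an antibody value of 211 and a FLAG value of 8.00. The 1 without FLAG was at Hoxb6, with 70.9. In the clustered protocadherins, whose alternative promoters are chosen with CTCF, 18 of 21 strong peaks had FLAG. The strongest with FLAG was at Pcdhgb7, with 200 and a FLAG value of 8.13. The strongest without was at Pcdhga12 (chromosome 18, 37771688 to 37773427), with 116, and it was in no mutant FLAG list although it had an SMC3 peak.

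Imprinted genes had FLAG at 7 of 8 strong peaks, and the 1 without was in Kcnq1, with 79.5. Ribosomal protein genes had it at 41 of 51. Their strongest was at Rps3a1, over a promoter window, with 219 in the antibody list and 3.77 in the FLAG list, rank 7228. Of the lineage groups, trophoblast genes had FLAG at 9 of 10 strong peaks, mesoderm and endoderm genes at 7 of 9, and neural genes at 7 of 10. The strongest without FLAG in these groups were at Tfap2c (126), at Mesp1 (111) and near Nes (95.7), and the strongest with FLAG near Gata2 (189), Tbx6 (147) and Lhx2 (221). The X inactivation centre had no antibody peak in the strongest decile and no FLAG peak at any of its 28 antibody peaks, the strongest of which had a value of 61.3 and rank 12889. Over the whole antibody list, 41.7% of peaks at ranks 12501 to 15000 had FLAG, but most of the 28 were weaker. Their median value was 9.29, within decile 7, where 0.0427% of all antibody peaks had FLAG. In decile 9, which held 6 of the 28, the share over all antibody peaks was 23.0%.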

How the data were processed

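Peak lists of ChIPmentation libraries were used as deposited. Per the submitters' processing notes, reads went through Trim Galore and Bowtie2 (build mm10), MACS2 and deepTools; no source used here gives their versions or settings. The deposited lists give each peak's position, its name and a score from the authors' caller, and which of the caller's measures this is could not be told. List titles name replicates 1 and 2; the names inside the FLAG list carry other replicate numbers, so which libraries it holds rests on its title. Identical FLAG intervals were collapsed to the highest value (18287 rows to 15392 peaks), and of these 2499 were listed for several summits. In the treated CTCF antibody list 2163 of 119136 numbers are missing.

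Overlaps, shares, Wilson and Newcombe intervals and Spearman's rho were computed in Python 3.11.15 (scipy 1.17.1, pandas 2.3.3, numpy 2.4.6), checked against bedtools 2.31.1 and tested on simulated lists, and figures drawn with matplotlib 3.10.9. Genes, promoter windows and sequences came from RefSeq tables of GRCm38.p6, the assembly mm10 names. All gene list members matched a symbol there except 1 of 30 imprinted genes and 2 of 10 genes of the X inactivation centre.

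Sites were named by the nearest protein-coding gene, by rule: the 10 strongest CTCF antibody peaks with and without FLAG, the 10 strongest FLAG peaks without antibody, 5 discordant pairs in each direction within the strongest 1000, and per gene list the strongest with and without FLAG within 10 kb. The members and lists were chosen with earlier results of these data known. Chosen after seeing the values were the rank bins, the running window, the check of missing numbers, matching over 100 bins, and the weights used to standardise. The weights were first the number of peaks with FLAG in each bin; they were replaced by Mantel-Haenszel weights after that result was seen, because bins with very few peaks without FLAG dominated it, and both are given. Alternatives were the minimum overlap, a 500-bp match, the upper 50% of each list, equal list lengths, other pairings and matching on strength.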

Additional observations from a re-analysis of the deposited data

How the results depend on the processing

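Most values moved with the definition of a match or of the list, and the gene end difference changed sign when strength was matched. A reciprocal overlap of 50% gave 0.0325% of CTCF antibody peaks with FLAG, 0.247% of FLAG peaks with antibody, 0.205% of the strongest decile, a rho of 0.60, and differences with minus without FLAG of 58.1 points for SMC3, 35.1 for untreated CTCF and 14.4 for gene ends; by its construction it drops small peaks inside wide ones. A match within 500 bp gave 12.4% of antibody peaks, 91.3% of FLAG peaks and 86.5% of the strongest decile, the last 2 within the intervals of the values reported, and 71.7, 3.22 and 10.2 points. The upper 50% of each list gave 12.5%, 98.9% and 70.3% for the 3 shares, a rho of 0.32, and 75.4, 2.22 and 9.38 points. Equal list lengths gave 76.3% of antibody peaks and 83.4% of FLAG peaks, and 30.0, 0.0463 and 2.08 points. Pairs overlapping 1 peak each gave a rho of 0.40, and the lowest value of repeated intervals 0.26. Leaving out unmatched peaks where a number is missing gave 11.4% of antibody peaks, and 91.4% of FLAG peaks and 86.8% of the strongest decile, again within those intervals.

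Matching on antibody strength is where the choice made after seeing a result matters. With Mantel-Haenszel weights the SMC3, untreated CTCF and gene end differences were 30.4, 0.0434 and -1.42 points over deciles and 21.0, 0.0435 and -5.57 over 100 bins. With the weights used first they were 23.9, 0.0546 and -0.245 over deciles and 12.3, 0.0226 and -3.90 over 100 bins. The size of the SMC3 difference thus depends on the weights, and its direction did not in these 4 versions; the causes of these shifts were not tested.

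No paired analysis was possible because each list pools both replicates of its group, and leaving out a replicate was not possible either. Depth, the caller's settings and the filter behind the missing numbers are unknown, so a peak that is not listed is not shown to be unbound.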

Other observations

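FLAG peaks without a CTCF antibody peak were spread unevenly over chromosomes. On chromosomes 12, 15 and 18, picked after their values were seen, 19.2% of 1845 FLAG peaks had no antibody peak, against 7.49% of 13547 on the others. Leaving aside chromosome Y, which held 1 FLAG peak, the highest share was 22.9% (130 of 568) on chromosome 18, followed by 18.9% on chromosome 12 and 16.3% on chromosome 15. On these 3 chromosomes 50.3% of such peaks were in no mutant list and 10.5% had SMC3, against 50.9% and 15.5% elsewhere.

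On the X chromosome, 7.96% of CTCF antibody peaks had FLAG, against 11.0% over all chromosomes, but in the strongest decile the share was 89.4% (83.7 to 93.3) of 161 peaks. SMC3 was at 77.6% of these 161, against 92.2% of the strongest decile over all chromosomes.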
